A study of Mus musculus with 9 samples.

Results

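The 9 genes described here carry the adenosine and purinergic signals of the cell surface. With earlier results of these data known, they were chosen by name from 22064 listed genes. They are the ecto-nucleotidases Entpd1 and Nt5e, the adenosine deaminase Ada, the adenosine receptors Adora2a, Adora2b and Adora3, and the nucleotide receptors P2rx4, P2rx7 and P2ry2. All 9 had values, and all 9 were among the 14108 genes that passed the filter on low counts. They were followed through RNA sequencing of neutrophils sorted from the lungs of female BALB/c mice, in 3 groups of 3 libraries each. The first 2 groups came from the same kind of host, mice bearing 4T1-LM3 tumors in the mammary fat pad (a lung-tropic line selected in vivo from 4T1 mouse mammary carcinoma cells) at the macrometastatic stage of lung colonization, and were gated as CD45+ cells with high (Ly6Ghigh) or low (Ly6Glow) surface Ly6g. The other group was the CD45+ Ly6Ghigh gate of lungs from mice without a tumor, called normal lung below. No Ly6Glow gate of normal lung was analysed here, the sources do not say whether a library stands for 1 mouse or for a pool, and the age of the mice at collection is not among the labels. The labels number the libraries as replicate biosamples without naming the mice, so each p-value measures only the spread between these libraries, which may be technical.

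Extracellular ATP is a danger signal released by stressed or dying cells, and it acts on P2 receptors, which are either ion channels (P2X) or G protein-coupled receptors (P2Y). CD39, the product of Entpd1, removes phosphates from ATP and ADP to give AMP, and CD73, the product of Nt5e, turns AMP into adenosine. Adenosine then acts on P1 receptors, of which those encoded by Adora2a and Adora2b raise cyclic AMP and that encoded by Adora3 lowers it, and it is removed by uptake or by deamination to inosine. In neutrophils and other leukocytes the ATP side of this axis is known for promoting activation and chemotaxis, and the A2 receptor side for restraining inflammatory responses.

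Library totals ran from 15267177 to 17841807 estimated counts. The spread over genes was small, with a common biological coefficient of variation of 0.0346 and a median quasi-dispersion of 0.882. The chi-square per degree of freedom between libraries of a group was 1.39 to 2.41, except that normal lung replicate 2 stood apart from replicates 1 and 3 (5.33 and 4.07). Without it, the same number of the 9 genes was called in both comparisons with normal lung (7 and 7). The gates were checked against marker lists. The summed level of 12 neutrophil markers was 100400 to 102700 CPM (read counts relative to the scaled library size) in the 3 macrometastatic Ly6Ghigh libraries, 85470 to 87160 CPM in Ly6Glow and 23040 to 23230 CPM in normal lung. Ly6g mRNA did not follow the names of the macrometastatic gates. Its mean level was 374 CPM in Ly6Ghigh and 394 CPM in Ly6Glow (log2 difference 0.08, adjusted p = 0.0577), with all 3 Ly6Glow libraries above the 3 Ly6Ghigh libraries, and it was 119 CPM in normal lung. Markers of B cells, of eosinophils, and of basophils and mast cells had their highest sums in macrometastatic Ly6Ghigh. The normal lung libraries held more mRNA of endothelial, epithelial, fibroblast and alveolar macrophage markers. Their summed levels of 8 endothelial markers (1033 to 1114 CPM against 146 to 150.6 in macrometastatic Ly6Ghigh and 176.7 to 182.6 in Ly6Glow), 8 epithelial markers (1105 to 1241 CPM against 103.7 to 109.7 and 106 to 112) and 6 fibroblast markers (517.9 to 548.8 CPM against 49.76 to 57.39 and 51.69 to 57.72) did not overlap with those of either macrometastatic gate. The 15 alveolar macrophage markers summed to 1679 to 1704 CPM in normal lung, 465.7 to 477.5 in macrometastatic Ly6Ghigh and 132.9 to 134.5 in Ly6Glow. Of the defining markers with values, Tpsb2 of mast cells was at 0 in macrometastatic Ly6Ghigh, and no other was at 0 in any group.

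Of the 9 genes, 8 had a promoter window in RefSeq (GRCm38.p6, the mm10 assembly that the submitters' notes name), 300 bases from 250 before a transcription start to 50 after it, with 11 windows in all. The 250 bases before the start are shown for Entpd1, P2ry2 and Adora2b, whose 3 Ly6Glow libraries all lay above the 3 macrometastatic Ly6Ghigh libraries and which hold a motif match outside annotated exons, and for Adora3, which shared their order over those gates and holds none. Nt5e shared their order over those gates and holds a motif match before its start, but its stretch there overlaps with an annotated exon and is not shown. Each stretch is written from 5′ to 3′ on the strand of the gene and contains no annotated exon, and capitals mark TGACGT (part of the cyclic AMP response element) in Entpd1 and GGGCGG (the Sp1 box) in P2ry2 and Adora2b, on either strand.
Entpd1, second start, chr19:40659520-40659769, plus strand: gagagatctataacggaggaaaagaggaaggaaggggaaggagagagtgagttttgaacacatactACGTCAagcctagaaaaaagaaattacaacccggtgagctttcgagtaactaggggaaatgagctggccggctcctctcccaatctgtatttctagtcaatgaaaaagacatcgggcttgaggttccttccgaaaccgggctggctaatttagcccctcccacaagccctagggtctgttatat
P2ry2, first start, chr7:101012054-101012303, minus strand: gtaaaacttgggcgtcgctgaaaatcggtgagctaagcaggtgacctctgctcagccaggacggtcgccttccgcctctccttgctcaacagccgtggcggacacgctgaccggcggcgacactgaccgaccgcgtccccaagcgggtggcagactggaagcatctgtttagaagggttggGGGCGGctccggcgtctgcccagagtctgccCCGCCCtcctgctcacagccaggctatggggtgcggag
Adora2b, chr11:62248734-62248983, plus strand: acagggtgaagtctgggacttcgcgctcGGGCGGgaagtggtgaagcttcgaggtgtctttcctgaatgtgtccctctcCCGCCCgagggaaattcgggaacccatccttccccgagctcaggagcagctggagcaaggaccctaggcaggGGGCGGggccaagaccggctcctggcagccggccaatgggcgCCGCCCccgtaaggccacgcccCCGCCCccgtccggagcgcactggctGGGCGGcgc
Adora3, chr3:105904171-105904420, plus strand: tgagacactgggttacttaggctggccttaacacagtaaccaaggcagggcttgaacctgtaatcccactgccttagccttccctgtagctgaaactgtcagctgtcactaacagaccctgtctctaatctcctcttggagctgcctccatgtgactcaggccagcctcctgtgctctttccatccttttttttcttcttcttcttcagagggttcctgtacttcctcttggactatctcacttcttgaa
Over the whole windows, GGGCGG was found for 6 of the 8 genes (Nt5e, Adora2b, P2rx4, P2rx7, P2ry2 and Ada), in 7 of their 11 windows, and in 35.7% of 32851 RefSeq promoter windows of the same length. TGACGT was found for 1 gene, Entpd1, at its second start, in 1 of the 11 windows, and in 7.51% of all windows. ACGTG, the core of the hypoxia response element, was found for 1 gene, P2ry2, in 2 of the 11 windows, and in 19.6% of all windows. The 2 windows of P2ry2 overlap, so a match in the bases they share counts in both. These matches describe letters only.

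Measured per length, Entpd1 was the most abundant of the 9 genes in all 3 groups. Its mean level was 131.2 FPKM (fragment counts relative to transcript length and depth) in macrometastatic Ly6Ghigh neutrophils, 274.1 in Ly6Glow and 334.9 in normal lung, which placed it at the 96.06, 98.14 and 98.69 percentile of tested genes. P2ry2 came next in both macrometastatic gates (16.4 and 23.2 FPKM) and Nt5e in normal lung (28.5 FPKM). The least abundant gene was P2rx7 in macrometastatic Ly6Ghigh (1.33 FPKM) and Ada in the other groups (0.877 FPKM in Ly6Glow and 2.49 in normal lung), although in Ly6Glow the levels of Ada, P2rx7 (0.92) and Adora2a (0.957) did not separate, since the libraries of Ada (0.67 to 1.08 FPKM) overlapped with those of the other two. In normal lung too, the libraries of Ada (2.23 to 2.86 FPKM) overlapped with those of Adora3 (2.83 to 3.6 FPKM). Summed over the 9 genes, the level was 735 to 747.9 CPM in macrometastatic Ly6Ghigh libraries, 1635 to 1665 in Ly6Glow and 1241 to 1251 in normal lung, and most of that sum was Entpd1.

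The comparison of the 2 macrometastatic gates asks how Ly6Glow and Ly6Ghigh neutrophils of macrometastatic lung differ. Relative to Ly6Ghigh, Ly6Glow neutrophils had higher mRNA of both ecto-nucleotidases and of P2ry2, and lower mRNA of Ada and Adora2a. Of the 9 genes, 3 were higher (Entpd1, Nt5e and P2ry2), 2 were lower (Ada and Adora2a) and 4 were not called, where a call is an adjusted p of at most 0.05 in edgeR's quasi-likelihood test, with Benjamini-Hochberg adjustment over all tested genes, and a log2 fold change above 0.58 in either direction. Of all tested genes, 25.2% were called, 9.29% as higher and 15.9% as lower. Without the fold threshold, 7 of the 9 genes passed at an adjusted p of at most 0.05, beside 55.8% of all tested genes. The groups of 3 did not overlap for 8 of the 9 genes and for 62.1% of all tested genes. The median log2 fold change was 0.36 over the 9 genes and -0.04 over all tested genes. Among the neutrophil markers, Csf3r, Mmp8, Cxcr2 and Retnlg were higher in Ly6Glow and Camp, Ltf and Ngp were lower, and 11 of 15 alveolar macrophage markers were lower. Also lower in Ly6Glow were 5 of 6 eosinophil markers, 5 of 7 B cell markers, 4 of 6 basophil and mast cell markers and 3 of 11 T and NK cell markers. Their part in the results for the 9 genes was not tested.

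The comparison of Ly6Ghigh neutrophils from macrometastatic and normal lung sets the gate of tumor-bearing mice against the same gate of mice without a tumor. It cannot tell an effect of the mammary tumor from one of the lung metastases. Macrometastatic Ly6Ghigh neutrophils had higher mRNA of Adora2b, Adora3 and P2ry2 than those of normal lung, and lower mRNA of Entpd1, Nt5e, P2rx4 and P2rx7. Of the 9 genes, 3 were therefore higher, 4 were lower and 2 (Ada and Adora2a) were not called, beside 62.9% of all tested genes called, 26.3% as higher and 36.6% as lower. Without the fold threshold, 9 of 9 passed, beside 84.6% of all tested genes. The groups did not overlap for all 9 genes and for 85.2% of all tested genes. The median log2 fold change was -0.48 over the 9 genes and -0.09 over all tested genes. Every neutrophil marker was called higher in macrometastatic Ly6Ghigh (12 of 12), whereas 13 of 15 alveolar macrophage markers, 8 of 8 endothelial, 8 of 8 epithelial, 6 of 6 fibroblast, 9 of 11 T and NK cell and 7 of 7 dendritic cell markers were called lower. Eosinophil markers (5 of 6) and basophil and mast cell markers (5 of 6) were called higher. Their part in the results for the 9 genes was not tested. In such bulk libraries, fewer cells of a type and less RNA per cell cannot be told apart.

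Macrometastatic Ly6Glow neutrophils, set against the same normal lung libraries, gave 3 higher genes (Adora2b, Adora3 and P2ry2), 4 lower genes (Ada, Adora2a, P2rx4 and P2rx7) and 2 genes not called (Entpd1 and Nt5e). Of all tested genes, 69.5% were called, 28.7% as higher and 40.8% as lower. Without the fold threshold 9 of 9 passed, and the groups did not overlap for all 9 genes, both beside 86.8% of all tested genes, and the median log2 fold change was -0.24 over the 9 genes and -0.16 over all. This comparison crosses both the gate and the lung, and it shares its normal lung libraries with the comparison of Ly6Ghigh neutrophils. Of the markers, 11 of 12 for neutrophils were called higher, and 14 of 15 for alveolar macrophages, 8 of 8 for endothelium, 7 of 8 for epithelium, 6 of 6 for fibroblasts, 10 of 11 for T and NK cells and 7 of 7 for dendritic cells were called lower. Of the markers of eosinophils 3 of 6, and of those of basophils and mast cells 4 of 6, were called higher. Their part in the results was not tested.

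**Figure D1:**
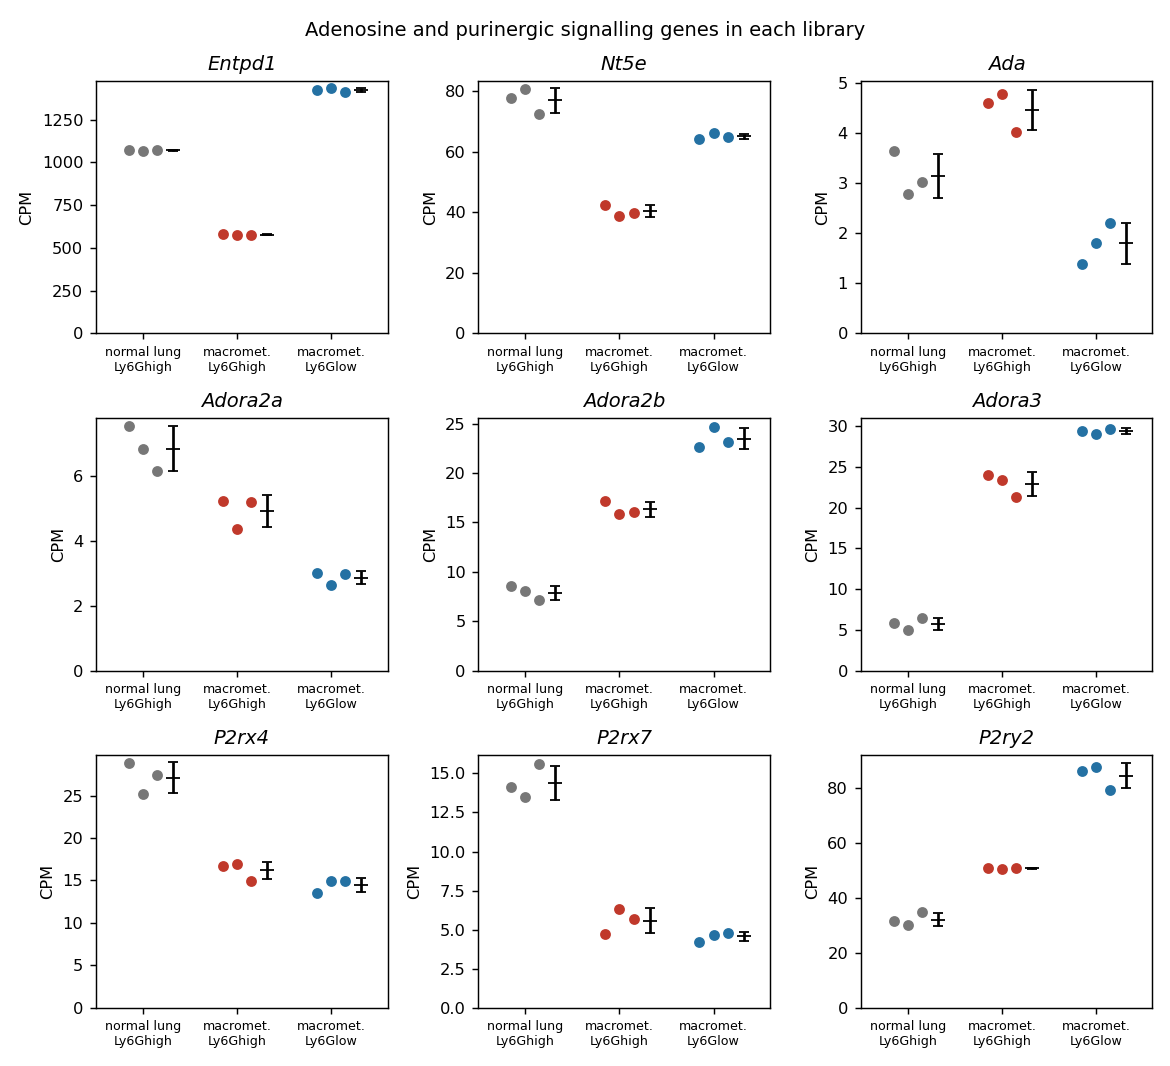
Level of each of the 9 genes in CPM (y axis, starting at 0) in the 3 libraries of each group (x axis), with points for libraries and a bar for the mean ± SD of 3 libraries. Entpd1, Nt5e and P2ry2 lie higher in macrometastatic Ly6Glow than in macrometastatic Ly6Ghigh libraries, Ada and Adora2a lie lower, and only the P2rx7 points of the 2 macrometastatic gates overlap.

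Entpd1 encodes CD39, the enzyme that starts the breakdown of extracellular ATP. The gene lies on the plus strand at chr19:40612366-40741602. Its level was 582, 576.7 and 577 CPM in the macrometastatic Ly6Ghigh libraries, 1422, 1433 and 1413 CPM in the Ly6Glow libraries and 1074, 1069 and 1072 CPM in normal lung. The Ly6Glow libraries were the highest and the Ly6Ghigh libraries the lowest, with no overlap between any of the groups and a spread within groups of at most 10.3 CPM (SD, n = 3). The log2 fold change of Ly6Glow over Ly6Ghigh was 1.30 ± 0.03 (SE, adjusted p = 2.29e-19), a 2.46-fold higher level. Macrometastatic Ly6Ghigh neutrophils were 1.85-fold lower than those of normal lung, with a log2 fold change of -0.89 ± 0.03 (SE, adjusted p = 5.80e-18). Ly6Glow exceeded normal lung by a log2 difference of 0.41 ± 0.03 (SE, adjusted p = 4.17e-12), which was under the fold threshold, and on the FPKM scale this difference had the opposite sign (-0.29), as described with the scalings.

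Nt5e encodes CD73, which makes adenosine from AMP, and lies on the plus strand at chr9:88327609-88372089. Its level was 42.5, 38.67 and 39.86 CPM in macrometastatic Ly6Ghigh, 64.25, 66.08 and 64.87 CPM in Ly6Glow and 77.83, 80.72 and 72.42 CPM in normal lung. The groups did not overlap, and normal lung was the highest and macrometastatic Ly6Ghigh the lowest. Ly6Glow was 1.61-fold higher than Ly6Ghigh (log2 fold change 0.69 ± 0.05 SE, adjusted p = 4.77e-10). Macrometastatic Ly6Ghigh was 1.91-fold lower than normal lung (log2 fold change -0.93 ± 0.05 SE, adjusted p = 1.71e-13). Between Ly6Glow and normal lung the log2 difference was -0.24 ± 0.05 (SE, adjusted p = 0.000118), under the fold threshold. The call between the 2 macrometastatic gates was lost on the FPKM scale, where the log2 fold change was 0.42 at a pseudocount of 1.

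Ada deaminates adenosine to inosine inside and outside the cell, and lies on the minus strand at chr2:163726571-163750239. Its level was 4.613, 4.782 and 4.023 CPM in macrometastatic Ly6Ghigh, 1.381, 1.806 and 2.211 CPM in Ly6Glow and 3.638, 2.783 and 3.019 CPM in normal lung, on estimated counts of only 17 to 81 per library. The 3 Ly6Glow libraries were the lowest and the 3 macrometastatic Ly6Ghigh libraries the highest, without overlap. Ly6Glow was 2.47-fold lower than Ly6Ghigh (log2 fold change -1.31 ± 0.19 SE, adjusted p = 5.65e-06) and 1.74-fold lower than normal lung (log2 fold change -0.80 ± 0.20 SE, adjusted p = 0.000824). Macrometastatic Ly6Ghigh differed from normal lung by a log2 fold change of 0.51 ± 0.15 (SE, adjusted p = 0.00461), which was under the fold threshold. Without macrometastatic Ly6Ghigh replicate 3 this value was 0.59, and without normal lung replicate 1 it was 0.62, and both passed the threshold.

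The adenosine receptors differed in direction. Adora2a, which encodes the high-affinity receptor that raises cyclic AMP, lies on the plus strand at chr10:75316877-75334792. Its level was 5.229, 4.368 and 5.2 CPM in macrometastatic Ly6Ghigh, 3.005, 2.634 and 2.973 CPM in Ly6Glow and 7.545, 6.844 and 6.174 CPM in normal lung. The order was normal lung, macrometastatic Ly6Ghigh and Ly6Glow, with no overlap between the groups. Ly6Glow was 1.72-fold lower than Ly6Ghigh (log2 fold change -0.78 ± 0.16 SE, adjusted p = 0.000256) and 2.39-fold lower than normal lung (log2 fold change -1.26 ± 0.14 SE, adjusted p = 5.02e-08). The call between the 2 macrometastatic gates was lost on log2(FPKM + 1), at -0.56. The difference of macrometastatic Ly6Ghigh from normal lung, -0.48 ± 0.12 (log2, SE, adjusted p = 0.00113), was under the fold threshold and passed it under upper-quartile scaling (-0.67) and on the FPKM scale (-0.70 at a pseudocount of 1).

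Adora2b, the lower-affinity receptor A2B, which also raises cyclic AMP, lies on the plus strand at chr11:62248984-62266452, directly after the stretch printed above. Its level was 17.22, 15.82 and 16.03 CPM in macrometastatic Ly6Ghigh, 22.66, 24.68 and 23.1 CPM in Ly6Glow and 8.533, 8.031 and 7.12 CPM in normal lung. Its order was the opposite of that of Adora2a, with Ly6Glow the highest, normal lung the lowest and no overlap. Macrometastatic Ly6Ghigh was 2.07-fold higher than normal lung (log2 fold change 1.05 ± 0.08 SE, adjusted p = 1.43e-10), and Ly6Glow was 2.97-fold higher (log2 fold change 1.57 ± 0.08 SE, adjusted p = 6.51e-14). The call for macrometastatic Ly6Ghigh over normal lung was lost on log2(FPKM + 1), at 0.52. Between the 2 macrometastatic gates the log2 difference was 0.52 ± 0.08 (SE, adjusted p = 5.01e-06), under the fold threshold, and with DESeq2 size factors it was 0.59 and passed.

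Adora3, the receptor A3 that lowers cyclic AMP and takes part in neutrophil chemotaxis, lies on the plus strand at chr3:105904421-105908928. Its level was 23.99, 23.44 and 21.29 CPM in macrometastatic Ly6Ghigh, 29.48, 29.05 and 29.73 CPM in Ly6Glow and 5.838, 4.973 and 6.399 CPM in normal lung. All 6 macrometastatic libraries lay above the 3 normal lung libraries, and the Ly6Glow libraries lay above the Ly6Ghigh libraries. Macrometastatic Ly6Ghigh was 3.99-fold higher than normal lung (log2 fold change 2.00 ± 0.09 SE, adjusted p = 2.59e-15) and Ly6Glow was 5.12-fold higher (log2 fold change 2.36 ± 0.09 SE, adjusted p = 9.39e-17). On scaled counts these were the largest fold changes among the 9 genes in these comparisons, whereas on log2(FPKM + 0.1) those of P2rx7 were larger in size (-1.66 against 1.51 for Adora3, and -2.14 against 1.63). Between the macrometastatic gates the log2 difference was 0.36 ± 0.07 (SE, adjusted p = 0.000198), under the fold threshold. Exons of Adora3 overlap with those of Tmigd3 on the same strand, so the split of reads between them is uncertain, and the estimated counts given to Tmigd3 were 2.05% to 11.8% of those of Adora3.

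**Figure D2:**
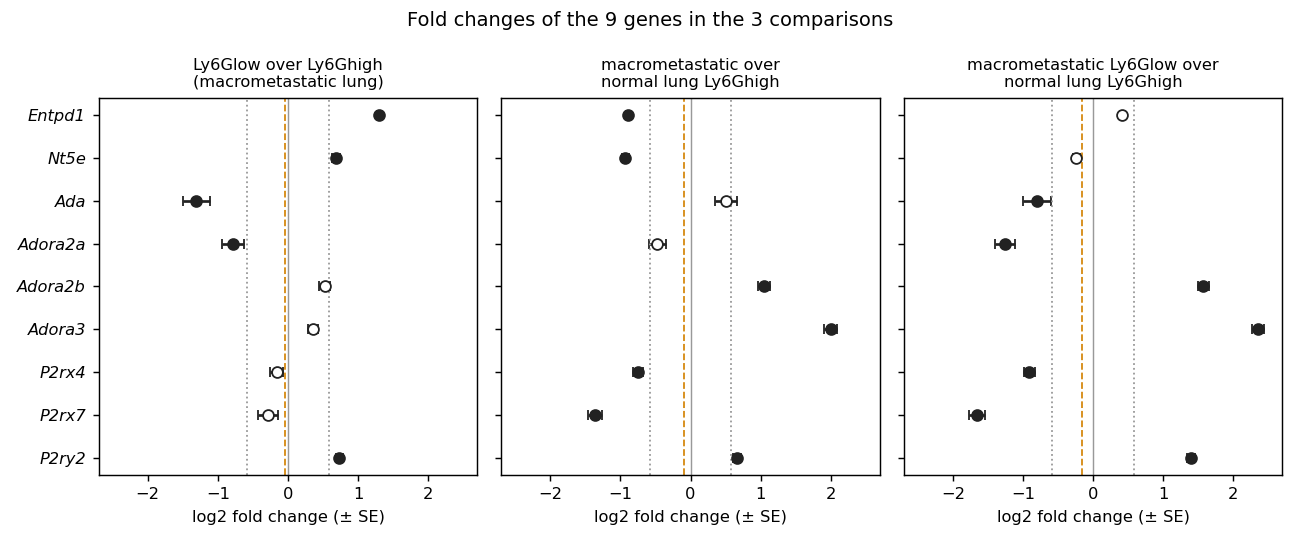
Log2 fold change (x axis) of each gene (y axis) in the 3 comparisons, with bars of ± 1 SE, filled points for called genes and open points for the others. Dotted lines mark the fold threshold of 0.58 and the dashed line marks the median of all tested genes. Adora2b, Adora3 and P2ry2 lie to the right, and P2rx4 and P2rx7 to the left, in both comparisons with normal lung.

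P2rx4 and P2rx7 are ATP-gated cation channels, and P2rx7 is the one that high ATP opens to start inflammasome signaling. They are neighbors on the plus strand of chromosome 5, P2rx7 at chr5:122643927-122692336 and P2rx4 at chr5:122707518-122729739, with 15181 bases between them. P2rx4 stood at 16.67, 16.88 and 14.98 CPM in macrometastatic Ly6Ghigh, 13.48, 14.9 and 14.94 CPM in Ly6Glow and 28.79, 25.14 and 27.44 CPM in normal lung. The normal lung libraries were the highest, and the 2 macrometastatic gates nearly met, since Ly6Ghigh replicate 3 lay just above the highest Ly6Glow library. P2rx4 was 1.68-fold lower in macrometastatic Ly6Ghigh than in normal lung (log2 fold change -0.74 ± 0.07 SE, adjusted p = 2.68e-09) and 1.88-fold lower in Ly6Glow (log2 fold change -0.91 ± 0.08 SE, adjusted p = 3.10e-10). The log2 difference of Ly6Glow from Ly6Ghigh was -0.16 ± 0.09 (SE, adjusted p = 0.117).

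P2rx7 stood at 4.736, 6.316 and 5.695 CPM in macrometastatic Ly6Ghigh, 4.224, 4.666 and 4.803 CPM in Ly6Glow and 14.15, 13.46 and 15.59 CPM in normal lung. The normal lung libraries were well above the rest, and the 2 macrometastatic gates overlapped. P2rx7 was 2.57-fold lower in macrometastatic Ly6Ghigh than in normal lung (log2 fold change -1.36 ± 0.10 SE, adjusted p = 6.02e-11) and 3.15-fold lower in Ly6Glow (log2 fold change -1.65 ± 0.12 SE, adjusted p = 1.14e-11). The log2 difference of Ly6Glow from Ly6Ghigh was -0.29 ± 0.14 (SE, adjusted p = 0.0886). The transcript length behind the estimates, the estimated count over the FPKM, moved for P2rx7 between 3512 and 4697 bases over the 9 libraries, so its FPKM carried more spread than its count. A microRNA, Mir8115, overlaps with an exon of P2rx7 on the same strand.

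P2ry2, a G protein-coupled receptor for ATP and UTP known for guiding neutrophil chemotaxis, lies on the minus strand at chr7:100996568-101012053. Its level was 50.87, 50.47 and 50.88 CPM in macrometastatic Ly6Ghigh, 86.18, 87.75 and 79.28 CPM in Ly6Glow and 31.48, 29.98 and 34.7 CPM in normal lung. The groups were ordered Ly6Glow, Ly6Ghigh and normal lung with no overlap, as for Adora2b and Adora3. Ly6Glow was 1.66-fold higher than Ly6Ghigh (log2 fold change 0.73 ± 0.05 SE, adjusted p = 1.59e-10) and 2.63-fold higher than normal lung (log2 fold change 1.40 ± 0.06 SE, adjusted p = 4.53e-16). Macrometastatic Ly6Ghigh was 1.58-fold higher than normal lung (log2 fold change 0.66 ± 0.06 SE, adjusted p = 5.28e-10), a call that was lost under upper-quartile scaling (0.47) and on the FPKM scale (0.18 at a pseudocount of 1). On the FPKM scale the call between the 2 macrometastatic gates was lost as well (0.47 at a pseudocount of 1).

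Ratios of FPKM within a library do not depend on how libraries are scaled against each other, and are given as descriptions. The ratio of Adora2b to Adora2a was 1.57 ± 0.03 (SD, n = 3) in normal lung, 4.62 ± 0.38 in macrometastatic Ly6Ghigh and 11.1 ± 1.19 in Ly6Glow. That of Adora3 to Adora2a was 0.89 ± 0.18, 5.02 ± 0.69 and 10.7 ± 0.58 in the same order. For both ratios, every Ly6Glow library lay above every Ly6Ghigh library, and these above every normal lung library.
The ratio of Entpd1 to Nt5e set the Ly6Glow libraries apart. It was 11.8 ± 0.67 (SD, n = 3) in normal lung and 12.1 ± 0.52 in macrometastatic Ly6Ghigh, which overlapped, and 18.5 ± 0.20 in Ly6Glow. The ratio of Nt5e to Ada, the enzymes that make and remove adenosine, was 4.25 ± 0.44 in macrometastatic Ly6Ghigh, 11.6 ± 1.81 in normal lung and 17.6 ± 4.12 in Ly6Glow, and the 2 latter groups were closest, at 13.6 for the highest normal lung library and 13.7 for the lowest Ly6Glow library. The ratio of P2rx4 to P2rx7 overlapped between the macrometastatic gates (4.52 ± 1.11 and 4.89 ± 0.67) and was 3.10 ± 0.35 in normal lung.

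**Figure D3:**
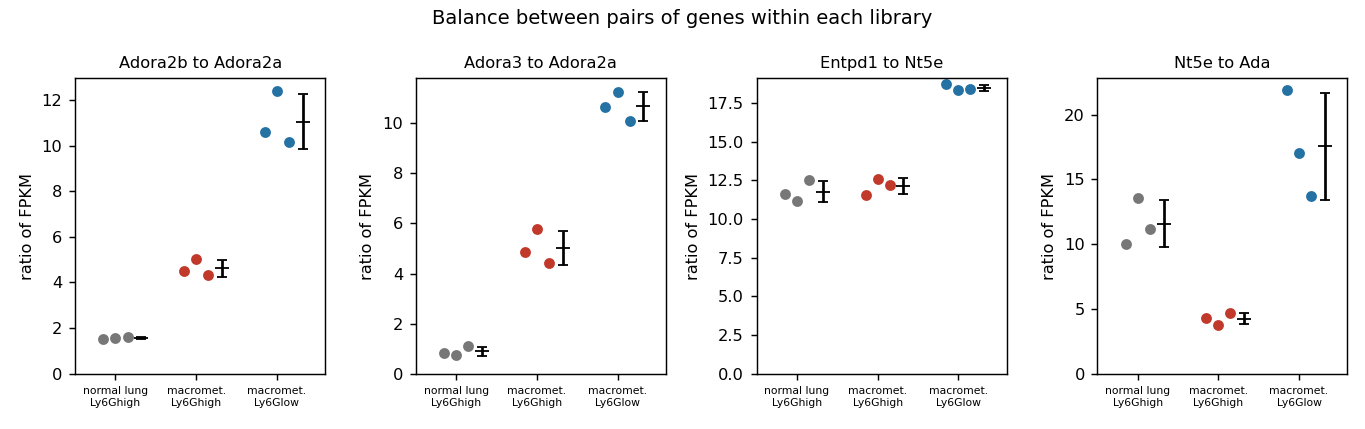
Ratio of the FPKM of 2 genes (y axis, starting at 0) in each library, with points for the 3 libraries of each group (x axis) and a bar for the mean ± SD. Both ratios to Adora2a are lowest in normal lung and highest in macrometastatic Ly6Glow, the ratio of Entpd1 to Nt5e is highest in Ly6Glow, and the ratio of Nt5e to Ada is lowest in macrometastatic Ly6Ghigh.

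How the libraries were scaled shifted all genes together. The TMM factors that scaled the counts were 0.9455 to 0.9504 in macrometastatic Ly6Ghigh, 0.8029 to 0.8066 in Ly6Glow and 1.298 to 1.324 in normal lung. In the comparison of Ly6Glow with normal lung the median log2 fold change of all tested genes was -0.16 on scaled counts, -0.35 under upper-quartile scaling and -0.81 on log2(FPKM + 0.1). The log2 fold change of Entpd1 in that comparison was 0.41 on scaled counts and -0.29 on log2(FPKM + 0.1), so its direction depended on the scaling. Relative to the median of all genes, Entpd1 stood at 0.57 on scaled counts, 0.57 under upper-quartile scaling and 0.52 on FPKM. Nt5e, called lower only on FPKM (-0.94), stood at -0.09 and -0.13 relative to the median on scaled counts and FPKM. All of the 9 genes but Entpd1 kept their direction under these scalings in this comparison, with and without the median taken off. The same medians for Ly6Ghigh against normal lung were -0.09, -0.28 and -0.51, and between the macrometastatic gates -0.04, -0.04 and -0.24.

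**Figure D4:**
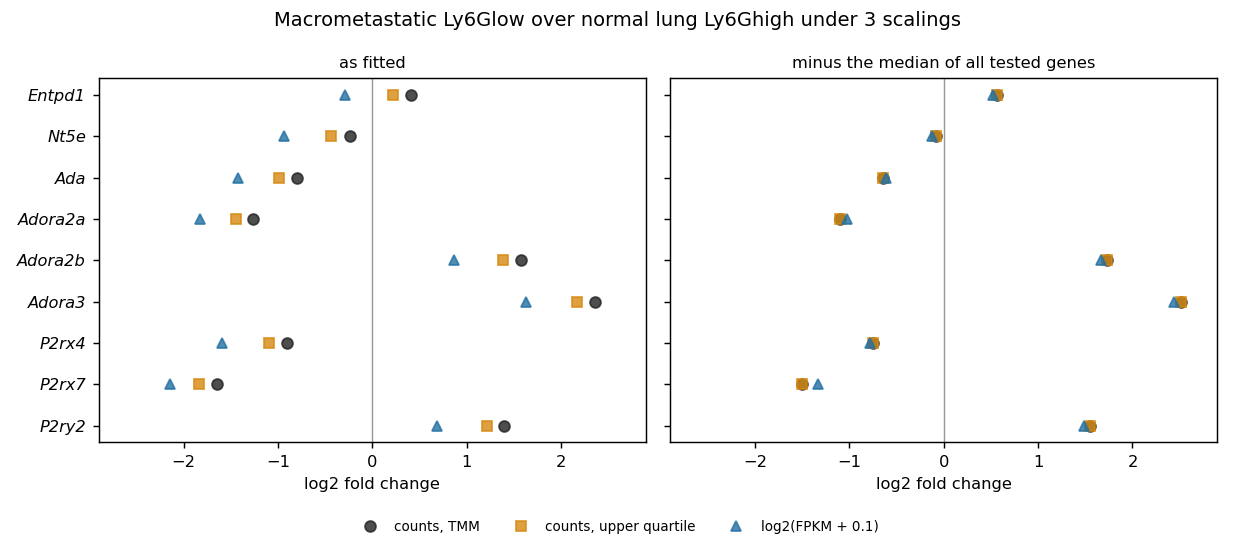
Log2 fold change of macrometastatic Ly6Glow over normal lung Ly6Ghigh (x axis) for each gene (y axis) under 3 scalings, as fitted (left) and after the median of all tested genes was taken off (right). Entpd1 lies at 0.41 on TMM-scaled counts and at -0.29 on FPKM as fitted, and between 0.52 and 0.57 relative to the median.

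Beyond the 9 genes, 73 others of the purinergic and cyclic AMP pathways were listed, of which 70 had values and 61 were tested. Between the macrometastatic gates, 6 of the 61 were higher in Ly6Glow and 13 were lower, against 25.2% of all genes called, with a median log2 fold change of -0.05. Macrometastatic Ly6Ghigh against normal lung gave 18 higher and 22 lower of 61 (62.9% of all genes called), and Ly6Glow against normal lung gave 18 higher and 24 lower (69.5%). The called shares were thus 31.1%, 65.6% and 68.9% of the list, near the share over all genes. As given above, the normal lung libraries held more mRNA of endothelial, epithelial, fibroblast and alveolar macrophage markers and less of neutrophil markers. The part of this in the pathway differences from normal lung below was not tested.

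Among the other receptors, Ly6Glow had lower P2rx1, an ATP-gated channel, at 2.437, 2.483 and 2.668 CPM against 14.76, 16.17 and 12.5 in macrometastatic Ly6Ghigh (log2 fold change -2.51 ± 0.14 SE, adjusted p = 1.50e-12). Normal lung, at 2.515, 2.19 and 2.749 CPM, overlapped with Ly6Glow and was 5.82-fold lower than macrometastatic Ly6Ghigh. The 6 eosinophil markers were also highest in macrometastatic Ly6Ghigh as a sum (109.8 to 118 CPM, against 36.2 to 37.89 in Ly6Glow and 40.6 to 43.35 in normal lung). Siglecf, also on the alveolar macrophage list, led that sum in Ly6Glow (29.46 CPM) and normal lung (38.69 CPM), against 31.4 CPM in macrometastatic Ly6Ghigh. Ear6 stood at 31.94 CPM in macrometastatic Ly6Ghigh, 0.411 in Ly6Glow and 0.287 in normal lung, and Prg2 at 29.44, 0.619 and 0.226 CPM. The part of these markers in the difference was not tested. P2ry14, the receptor for UDP-glucose, had a mean of 0.802 CPM in Ly6Glow, 4.83 in macrometastatic Ly6Ghigh and 15 in normal lung, with a log2 fold change of -2.58 between the macrometastatic gates. P2ry1, a receptor for ADP, was 7.83-fold higher in macrometastatic Ly6Ghigh (28.4 CPM) and 6.30-fold higher in Ly6Glow (22.8 CPM) than in normal lung (3.62 CPM). P2rx5 was lower in both macrometastatic gates than in normal lung, with means of 0.545, 0.281 and 2.68 CPM for Ly6Ghigh, Ly6Glow and normal lung. Adora1, the receptor A1, was at 1.06 CPM in Ly6Glow against 0.403 in macrometastatic Ly6Ghigh (log2 fold change 1.37 ± 0.39 SE, adjusted p = 0.00513), low in both groups.

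The other ecto-enzymes included Entpd3, a relative of CD39 that also hydrolyses ATP, and it followed the order of P2ry2. Its level was 100.3, 103.7 and 99.1 CPM in macrometastatic Ly6Ghigh, 166.6, 160.4 and 151.9 CPM in Ly6Glow and 18.55, 18.43 and 21.18 CPM in normal lung. It was 1.58-fold higher in Ly6Glow than in Ly6Ghigh (adjusted p = 5.75e-11) and 5.21-fold higher in macrometastatic Ly6Ghigh than in normal lung (adjusted p = 4.73e-20). Enpp1, which cleaves ATP to AMP and pyrophosphate, was 2.88-fold lower in Ly6Glow (1.24 CPM) than in Ly6Ghigh (3.58 CPM). Alpl, a phosphatase that can release adenosine, and Entpd2 were 6.49-fold and 8.23-fold lower in macrometastatic Ly6Ghigh than in normal lung, Entpd2 on means of 0.142 and 1.22 CPM.

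Of the genes for nucleotide release and nucleoside uptake, Slc17a9, which loads ATP into vesicles, was highest in macrometastatic Ly6Ghigh. Its level there was 30.45, 29.58 and 31.44 CPM, against 8.61, 10.84 and 8.767 CPM in Ly6Glow and 5.973, 5.019 and 4.281 CPM in normal lung. The log2 fold change was -1.69 ± 0.10 (SE) for Ly6Glow over Ly6Ghigh and 2.58 ± 0.10 for macrometastatic Ly6Ghigh over normal lung. Slc29a1, the equilibrative transporter ENT1 that takes up adenosine, was 2.51-fold lower in Ly6Glow (2.93 CPM) than in Ly6Ghigh (7.34 CPM) and 5.96-fold lower in macrometastatic Ly6Ghigh than in normal lung (43.9 CPM). Gja1, a connexin, was 3.68-fold lower in macrometastatic Ly6Ghigh than in normal lung. Slc28a2, a concentrative nucleoside transporter with a close paralog, so that reads could be split between the copies, was 1.61-fold higher in Ly6Glow (360.4 CPM) than in Ly6Ghigh (223.9 CPM) and 4.09-fold higher than in normal lung.

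Among the adenosine and purine salvage enzymes, 1 of 14 was higher and 4 were lower in Ly6Glow than in Ly6Ghigh. The called share was 35.7%, beside 25.2% of all tested genes. The called enzymes included Dck, the deoxynucleoside kinase (1.68-fold higher), Aprt, which salvages adenine (2.10-fold lower), and the nucleotidase Nt5c (1.85-fold lower). Against normal lung, 7 of 14 were higher and 2 were lower in macrometastatic Ly6Ghigh (64.3%, near the 62.9% of all tested genes). The higher ones included Ampd3, the AMP deaminase (247.2 against 70.7 CPM), and Nt5c3 (113.5 against 23 CPM). Dpp4 (CD26), which binds Ada at the surface in some species, was 5.17-fold lower (6.14 against 31.8 CPM). In Ly6Glow, Gda, the guanine deaminase, was 3.85-fold higher and Nt5c3b 3.50-fold lower than in normal lung.
Of 23 cyclic AMP genes, which act below the A2 and A3 receptors, 2 were higher and 4 were lower in Ly6Glow than in Ly6Ghigh. Their called share was 26.1%, near the 25.2% of all tested genes. Crem, a transcription factor induced by cyclic AMP, stood at 81.39, 78.87 and 78.37 CPM in Ly6Glow against 28.97, 29.22 and 28.91 CPM in Ly6Ghigh (log2 fold change 1.45 ± 0.05 SE, adjusted p = 6.80e-16), and at 83.67, 91.12 and 85.53 CPM in normal lung. The adenylyl cyclases Adcy3 and Adcy7 were 3.63-fold and 2.02-fold lower in Ly6Glow. Against normal lung, 11 of 23 were lower in macrometastatic Ly6Ghigh and 3 were higher (60.9%, near the 62.9% of all tested genes). The largest changes were those of Adcy6 (8.06-fold lower), Adcy4 (6.55-fold lower) and the cyclic AMP sensor Rapgef4 (4.86-fold lower). In Ly6Glow 11 were lower and 5 higher than in normal lung (69.6%, near the 69.5% of all tested genes). Adcy3 (15.7-fold lower), Adcy6 (7.82-fold lower) and Rapgef3 (6.48-fold lower) were in front. Normal lung also had the higher endothelial, epithelial and fibroblast marker levels, and the part of such cells in these differences was not tested.

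**Figure D5:**
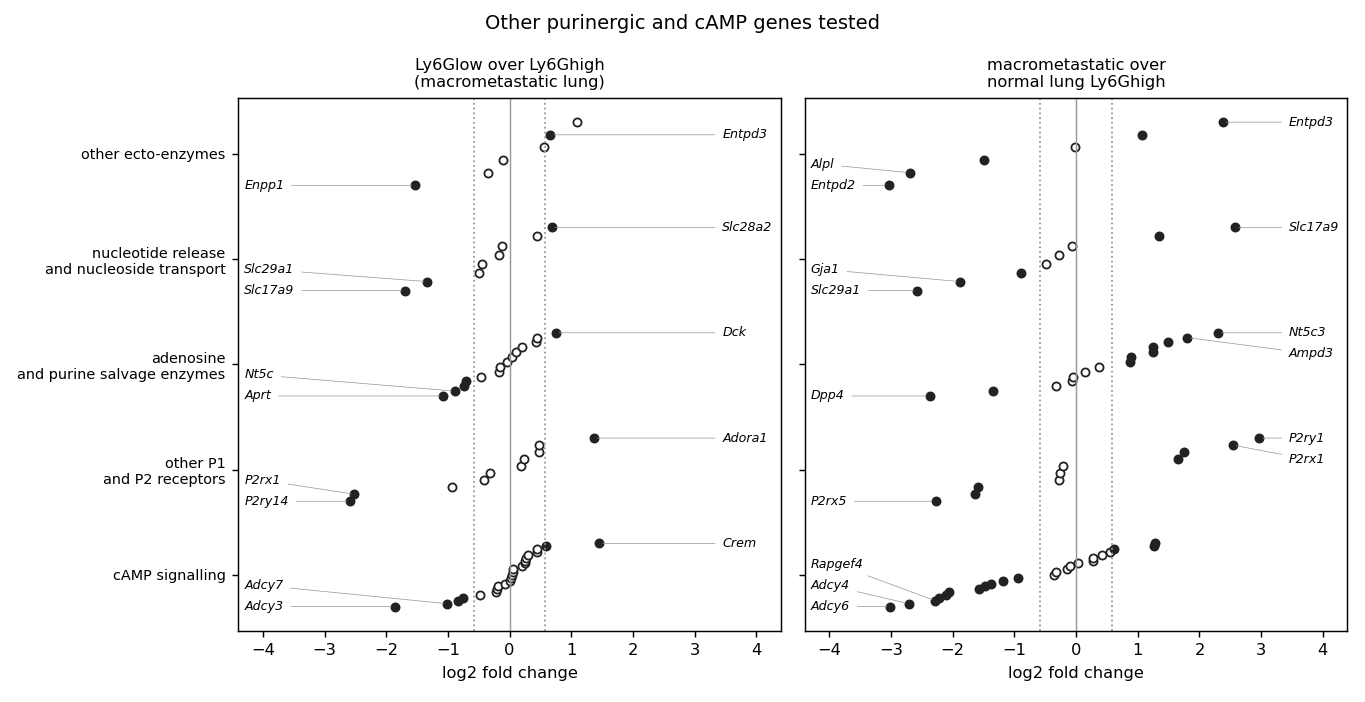
Log2 fold change (x axis) of the 61 other pathway genes tested, in 5 subgroups (y axis), for the comparison of the macrometastatic gates (left) and of the Ly6Ghigh gates (right), with filled points for called genes and dotted lines at the fold threshold. The named genes are up to 3 called genes a subgroup with the largest change, and P2rx1 and Slc17a9 lie to the left in the first comparison and to the right in the second.

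For each of the 9 genes, the 2 genes with the most similar profile were named by the root mean square difference of centred log2 CPM over the 9 libraries. The closest of all was C5ar1, the receptor for complement C5a, for P2ry2, with a difference of 0.04 and means of 713.5 CPM in macrometastatic Ly6Ghigh, 1187 in Ly6Glow and 445.5 in normal lung. Tmem189 followed for P2ry2 (0.06). Entpd1 was most like Dusp6 and Zswim4 (0.07 each), Nt5e like Ifih1 and Smchd1 (0.07 each) and P2rx4 like Slc12a7 (0.06) and Sgk1 (0.07). Adora2b was most like Ksr1 and Atg3 (0.07 each), and Adora3 like Il16 and Siglece (0.08 each). For Adora2a the nearest were Gtpbp4 (0.09) and Idh3a (0.10), and for P2rx7 Zscan26 and Lrp6 (0.10 each). Ada had no gene within 0.1, and its nearest were Topbp1 (0.15) and Blm (0.17). Its estimated counts were only 17 to 81 per library, and its Ly6Glow libraries ran from 1.381 to 2.211 CPM. The part of low counts in how many genes came within 0.1 of a gene was not tested. Counted with the named genes, 46 genes lay within 0.1 of P2ry2, 43 of Adora2b, 23 of Nt5e and 20 of P2rx4. Entpd1 had 8 such genes, Adora3 had 5, Adora2a had 2 and P2rx7 had 1. With 3 groups of tight replicates, these likenesses rest on 3 group levels.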

How the data were processed

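RNA was sequenced from 9 libraries of sorted mouse lung neutrophils. Per the labels, poly(A) RNA was made into stranded libraries for paired-end sequencing, and the submitters' notes name the mm10 build. The aligner and counter are not given in the sources used here. The authors deposited an estimated count and an FPKM value per gene and library, with 37.92% of the counts whole. Of 22064 genes, 3739 had blank values.

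Counts were rounded and tested with edgeR 4.0.16 in R 4.3.3 (TMM scaling, filter on low counts by group, a quasi-likelihood F test over the 9 libraries together, without covariates). The fold threshold of 0.58 (log2) is that of the study's methods. SE is the size of the log2 fold change divided by the square root of F. The script was tested on simulated counts. Levels between genes were compared in FPKM. Alternatives were DESeq2 1.42.0, other scalings, filters and thresholds, limma 3.58.1 on log2(FPKM + 1) and log2(FPKM + 0.1), a replicate block and leaving out each library. An exact permutation test of 3 against 3 cannot go below p = 0.1 (two-sided), so none is given.

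The 9 genes, the pathway list of 73 and the marker lists were chosen with earlier results of these data known. Named pathway genes are, per comparison and subgroup, up to 3 called genes with the largest change whose mean reached 1 CPM in either group. The 2 genes most like each of the 9 were taken among tested genes with a mean of at least 1 CPM. Promoter sequences are from RefSeq. Depth was 15267177 to 17841807 estimated counts per library.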

Additional observations from a re-analysis of the deposited data

How the results depend on the processing

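Of the log2 fold changes of the 9 genes under the alternatives, 402 kept their direction and their side of the call, 15 lost the call, 12 gained it and 3 reversed. The 3 were Entpd1 in Ly6Glow over normal lung with limma on log2(FPKM + 1) (-0.29), on log2(FPKM + 0.1) (-0.29) and on log2(FPKM + 1) with an FPKM of at least 1 in 3 libraries (-0.29). Between the macrometastatic gates, the count of called genes over all genes was 3560 and became 2242 and 2223 with limma on log2(FPKM + 1) without and with that filter, 7868 with no fold threshold and 1305 with a threshold of 1. Of the 9 genes, 5 were called there, and 2, 3 and 2 with limma on log2(FPKM + 1), log2(FPKM + 0.1) and the filtered values, and 2 with a threshold of 1. The limma fits covered all 18325 genes with values, or those that passed the FPKM filter, in place of the 14108. The count over all genes on log2(FPKM + 0.1) is not given. These counts are therefore not shares of 1 common set and say nothing particular to the 9 genes. Of the 61 pathway genes, 19 were called, and 12 and 12 with limma on log2(FPKM + 1) without and with the filter, 38 with no fold threshold and 10 with a threshold of 1. For macrometastatic Ly6Ghigh over normal lung, 3 of the 9 genes were called with a threshold of 1 in place of 7. The count over all genes at that threshold is not given for this comparison. The fall therefore cannot be read as particular to the 9 genes. A change of the fold threshold moves the counts by construction, and the shift of the median with the scaling is given in the report. The cause of the other changes was not tested.

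The share of calls that were higher was 36.8%, 41.8% and 41.3% in the 3 comparisons in the order of the report, and 12.6%, 19.3% and 13.6% with limma on log2(FPKM + 0.1). Leaving out each library gave 3387 to 3510, 8875 to 8970 and 9805 to 9866 called genes, 5 to 5, 7 to 8 and 7 to 7 of the 9 genes, and 18 to 20, 41 to 42 and 41 to 44 pathway genes. Deviations of same-numbered libraries correlated between -0.07 and 0.08 over 9 pairs, and no library had both same-numbered libraries as its nearest. The replicate block (3522, 8856 and 9775 called genes, with 5, 7 and 7 of the 9 genes) changed no call among the 9 genes. These values cannot decide whether same-numbered libraries of the macrometastatic gates came from the same mice. Within those gates the chi-square per degree of freedom between libraries was only 1.39 to 2.41, so a shared mouse might not show. The pairs with normal lung cannot share a mouse and do not bear on this question. Of the 9 genes, Ada (17 to 81 estimated counts per library) is limited most by depth.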

Other observations

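The remaining marker lists are given as summed levels over the 3 libraries of macrometastatic Ly6Ghigh, macrometastatic Ly6Glow and normal lung, in that order. Markers of monocytes and other macrophages summed to 589.6 to 593.8, 578.7 to 596.6 and 931.9 to 1009 CPM. Those of T and NK cells summed to 59.45 to 61.84, 44.52 to 46.96 and 106.6 to 113.2 CPM, and those of B cells to 49.06 to 49.64, 30.54 to 32.7 and 34.45 to 36.23 CPM. Dendritic cell markers summed to 14.42 to 16.61, 15.32 to 16.65 and 48.23 to 53.63 CPM, and platelet markers to 9.22 to 10.8, 8.77 to 10.7 and 14.3 to 15.6 CPM. Eosinophil markers summed to 109.8 to 118, 36.2 to 37.89 and 40.6 to 43.35 CPM, and basophil and mast cell markers to 43.27 to 45.1, 25.31 to 28.82 and 26.46 to 29.28 CPM. The eosinophil sum was led by Siglecf, also an alveolar macrophage marker here, in Ly6Glow (29.46 CPM) and normal lung (38.69 CPM).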
